A study of Mus musculus with 2 samples.

Results

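The surfactant and secretoglobin genes of lung epithelium were followed in the RNA of sorted regulatory T cells (Tregs). The 9 genes were chosen by symbol, Sftpa1, Sftpb, Sftpc, Sftpd, Napsa, Scgb1a1, Scgb3a1, Scgb3a2 and Cyp2f2, and all 9 were found among the 24346 symbols that both libraries list. The choice was made with earlier results of these data known. GFP+CD4+ cells were sorted from the spleen and from the lung of Foxp3-DTR-GFP (FDG) mice, in which the Foxp3 locus drives GFP, 15 days after bleomycin (BLM). The mice were 10 to 16 weeks old and received 50 μg of BLM through the trachea. Cells of 3 mice were pooled into 1 library per tissue, so that both groups shared the genotype and the treatment and differed in the organ. The libraries were made from full-length cDNA with a kit for small amounts of RNA. The spread between mice cannot be estimated from a single pooled library of each organ, and differences carry no p-value.

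Pulmonary surfactant is a film of lipids and proteins that lowers the surface tension of the alveoli. It is made by type 2 alveolar cells. The hydrophobic proteins SP-B and SP-C spread the lipids, whereas SP-A and SP-D are collectins that bind microbes. Secretoglobins are small secreted proteins of the airway lining, and club cells of the bronchioles release them in large amounts. Both groups of genes serve as markers of these epithelial cells.

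The promoter sequences of 4 of the 9 genes were matched in RefSeq for GRCm38.p6, and they are shown because 3 of these genes were above 0 in lung Tregs while the other, Scgb3a1, was at 0. The genes Sftpc, Sftpd, Napsa, Scgb1a1 and Scgb3a2 had no match. Each sequence runs 5′ to 3′ from 250 bases before the RefSeq start and ends before the first base of the gene in RefSeq or GENCODE. Capitals mark the motifs TATAAA (the core of the TATA box), CTCAAG (a core bound by NKX2-1) and TGTTTAC or TGTTTGC (forkhead factors), searched on both strands.
Sftpa1, chr14:41131538-41131781 (plus strand): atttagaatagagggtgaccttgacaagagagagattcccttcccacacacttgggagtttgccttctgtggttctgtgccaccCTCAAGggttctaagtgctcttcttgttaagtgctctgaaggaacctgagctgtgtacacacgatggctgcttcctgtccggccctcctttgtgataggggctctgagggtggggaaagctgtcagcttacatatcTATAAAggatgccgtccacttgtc
Sftpb, chr6:72304360-72304609 (plus strand): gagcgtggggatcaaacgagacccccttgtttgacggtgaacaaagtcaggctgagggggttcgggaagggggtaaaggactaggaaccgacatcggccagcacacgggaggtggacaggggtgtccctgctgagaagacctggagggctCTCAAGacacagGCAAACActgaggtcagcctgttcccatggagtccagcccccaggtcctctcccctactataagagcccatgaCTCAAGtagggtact
Cyp2f2, chr7:27119705-27119908 (plus strand): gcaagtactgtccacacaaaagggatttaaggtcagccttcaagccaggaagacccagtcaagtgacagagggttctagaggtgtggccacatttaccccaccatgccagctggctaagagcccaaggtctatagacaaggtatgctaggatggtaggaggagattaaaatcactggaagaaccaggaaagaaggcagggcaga
Scgb3a1, chr11:49663345-49663594 (plus strand): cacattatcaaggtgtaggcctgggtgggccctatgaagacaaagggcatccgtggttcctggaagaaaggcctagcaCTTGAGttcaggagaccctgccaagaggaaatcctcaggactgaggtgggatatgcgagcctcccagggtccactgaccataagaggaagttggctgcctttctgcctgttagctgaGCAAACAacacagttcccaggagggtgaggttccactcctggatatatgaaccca
The CTCAAG core occurred once before Sftpa1, 166 bases from the start, and at 100 and 15 bases before Sftpb. It occurred once before Scgb3a1, at 172 bases, on the other strand. A TGTTTGC match lay on the other strand 88 bases before Sftpb and 55 bases before Scgb3a1, and no match overlapped another. TATAAA was found at 30 bases before Sftpa1. The window of Cyp2f2 held none of these letters. Of 32817 promoter windows of 250 bases, 13.3% held CTCAAG, 7.29% held either forkhead motif and 12.4% held TATAAA. Scgb3a1, at 0 in both libraries, thus shared CTCAAG and TGTTTGC with Sftpb, which was above 0 in lung.

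The values are FPKM, in which the fragments counted for a gene are divided by its exon length and by a measure of the mapped fragments. Whether that measure was scaled between the libraries is not stated. The reads behind each FPKM were estimated from transcript lengths, and they summed to 9865862 in spleen and 12885618 in lung. Intervals below are at 95%, and intervals and limits cover the counting of these reads only, since PCR copies of a molecule are counted separately. For a gene listed at 0, the limit is the FPKM of 3 reads. The sorted cells carried Treg genes in both tissues. Foxp3 had 18.7 FPKM in spleen and 41.8 in lung, Cd4 was at 195 and 179, and the actin gene Actb was at 1325 and 1242. All 9 genes of a Treg identity list reached 1 FPKM or more in each organ. The list also holds general genes of T cells and leukocytes, such as Cd3e and Ptprc. Of the 9 genes, 3 were higher in lung and 6 were lower. Over all 24346 symbols, 10976 reached that level in spleen and 11170 in lung.

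Transcripts of all 4 surfactant protein genes were present in the lung Treg library, whereas in the splenic library they were at or near 0. Sftpc, which encodes the hydrophobic SP-C, was the highest of them at 94.8 FPKM in lung and was listed at 0 in spleen. Its lung value rested on about 652 reads (603 to 704), and against the splenic limit of 0.496 FPKM it was at least 191-fold higher in lung. Sftpc made up 87.8% of the summed FPKM of the 4 genes in lung. Because the RNA came in bulk, more cells of a type and more RNA per cell cannot be told apart here or below.
Sftpd encodes the collectin SP-D and was at 6.46 FPKM in lung, about 81.1 reads (64.3 to 101), and at 0 in spleen. The difference was at least 23.8-fold. Sftpa1 encodes SP-A and was at 4.93 FPKM in lung, about 154 reads (131 to 180). It was the one surfactant protein gene above 0 in spleen, at 0.0376 FPKM, which corresponds to about 1.03 reads. The ratio was 131, with an interval of 24.0 to 5392.
Sftpb encodes SP-B, which is needed for a working surfactant film, and was the lowest, at 1.75 FPKM in lung from about 22.7 reads (14.6 to 34.5) and 0 in spleen. Its lung value was at least 6.68-fold above the splenic limit. Sftpc and Sftpb, which type 2 cells use together, differed 54.1-fold in lung (35.4 to 85.0).

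**Figure D1:**
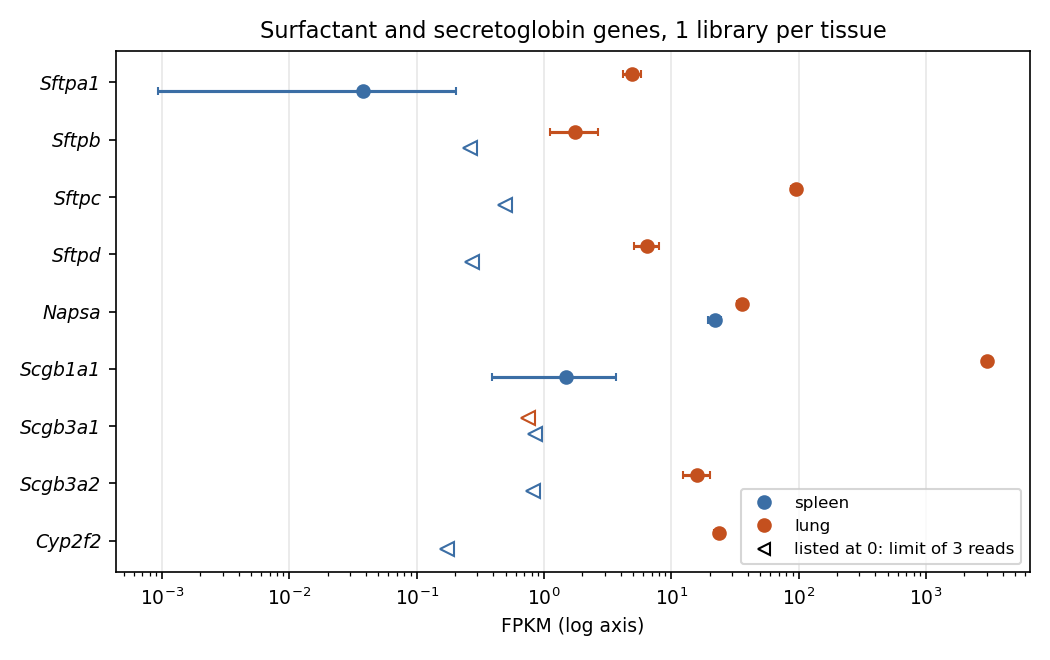
FPKM of the 9 genes on a log axis in splenic (blue) and lung (orange) Tregs, 1 library each. Points are the deposited values, bars are 95% Poisson intervals of the estimated reads, and open triangles mark genes listed at 0, drawn at the FPKM of 3 reads. Scgb1a1 stands at 3021 FPKM in lung, the points of Napsa lie close together, and Scgb3a1 was at 0 in both.

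Napsa did not share this pattern. It encodes napsin A, an aspartic protease that processes pro-SP-B in type 2 cells. Napsa reached 21.9 FPKM in spleen, about 306 reads (273 to 342), and 35.8 FPKM in lung, about 570 reads (524 to 619). The ratio of 1.64 had a counting interval of 1.43 to 1.89, and on the log2 scale it was 0.71. After both libraries were rescaled to the same total (TPM), the log2 ratio was 0.28. Napsa thus gave 93.5% of the summed FPKM of the 9 genes in spleen and 1.12% in lung. In GENCODE an antisense gene, Gm15396, overlaps Napsa, and another, Gm15883, overlaps Cyp2f2. A use of strand in counting is not stated, so reads of these pairs cannot be told apart.

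Among the secretoglobins, Scgb1a1 exceeded every other gene of the group. It encodes the club cell secretory protein and was at 3021 FPKM in lung, which rested on about 9529 reads (9339 to 9722), and ranked 29 among all symbols of that library. In spleen it was at 1.48 FPKM, about 4.13 reads (1.09 to 10.2). The ratio was 2035, with an interval of 819 to 7702.
Scgb3a2, another secretoglobin of the airways, was at 15.97 FPKM in lung from about 66.9 reads (51.9 to 85.1) and was listed at 0 in spleen. It was at least 19.6-fold higher in lung. Scgb3a1, a secretoglobin of larger airways, was listed at 0 in both libraries, which allows up to 0.858 FPKM in spleen and 0.755 in lung. In lung, Scgb1a1 was therefore at least 3999-fold and Scgb3a2 at least 21.1-fold above Scgb3a1. Of the other 21 secretoglobin symbols, 20 were at 0 in both libraries and Scgb1b30 had 0.601 FPKM in lung against 0 in spleen. The symbols Sft2d1, Sft2d2 and Sft2d3 belong to vesicle transport genes that resemble the surfactant symbols by name, and they had 130.4, 15.1 and 1.21 FPKM in lung against 97.3, 18.4 and 4.89 in spleen.
Cyp2f2, a cytochrome P450 that club cells use to oxidise inhaled compounds, was at 23.8 FPKM in lung. This value came from about 465 reads (424 to 509), and with 0 in spleen the difference was at least 136-fold. Its paralogs on either side, Cyp2a12 at 0.0584 FPKM and Cyp2t4 at 0, were near or at 0 in the same library.

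Ordered by level per exon length in lung Tregs, the genes ran Scgb1a1, Sftpc, Napsa, Cyp2f2, Scgb3a2, Sftpd, Sftpa1, Sftpb and Scgb3a1. Scgb1a1 was 31.9-fold above Sftpc (29.4 to 34.5), 127-fold above Cyp2f2 (115 to 139) and 189-fold above Scgb3a2 (149 to 244). Sftpc was 2.65-fold above Napsa (2.36 to 2.97). Napsa was 1.50-fold above Cyp2f2 (1.33 to 1.70), which in turn was 1.49-fold above Scgb3a2 (1.15 to 1.95). The interval of Sftpd over Sftpa1, 1.31-fold (0.984 to 1.72), included 1, so these neighbours did not differ beyond the counting of reads. The other steps between neighbours above 0 in this order had intervals above 1. In spleen the order was Napsa, Scgb1a1 and Sftpa1, and the other 6 were at 0.
Together the 9 genes held 0.396% of all FPKM in lung and 0.00390% of all FPKM in spleen. Scgb1a1 gave 94.3% of the group's lung sum, and without it the shares were 0.0227% in lung and 0.00365% in spleen.

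Set against all symbols, with values under 0.1 FPKM raised to 0.1, 6 of the 9 genes were over 20-fold higher in lung Tregs, the fold the study used as its threshold. The same count over all 24346 symbols was 395, or 1.62%. Because the 9 genes were chosen with earlier results of these data known, the comparison describes them and is not a test. The 6 genes were Scgb1a1, Sftpc, Cyp2f2, Scgb3a2, Sftpd and Sftpa1, with floored ratios of 2035, 948, 238, 160, 64.6 and 49.3. Sftpb fell just outside the threshold at 17.5, Napsa was at 1.64, and no fold is given for Scgb3a1. Past 20-fold in the opposite direction were 0 of the 9 genes and 284 symbols, or 1.17% of all. Of the 9, only Napsa had a splenic level high enough for such a call under this floor, so the 0 says little. By any amount, 8 of the 9 genes were higher in lung, against 31.1% of all symbols, and 1 of the 9 was at 0 in both organs, against 34.6%. The median log2 ratio of the 9 genes was 6.01, against 0 over all symbols. Crediting every gene with no fewer than 3 reads in either organ left 5 of the 9 over 20-fold, with Scgb3a2 at 19.6, and gave a median of 4.57. In this comparison, a gene listed at 0 in spleen and at 1 FPKM or more in lung was uncommon, with 328 symbols or 1.35% of all, and 5 of the 9 genes were among them.

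**Figure D2:**
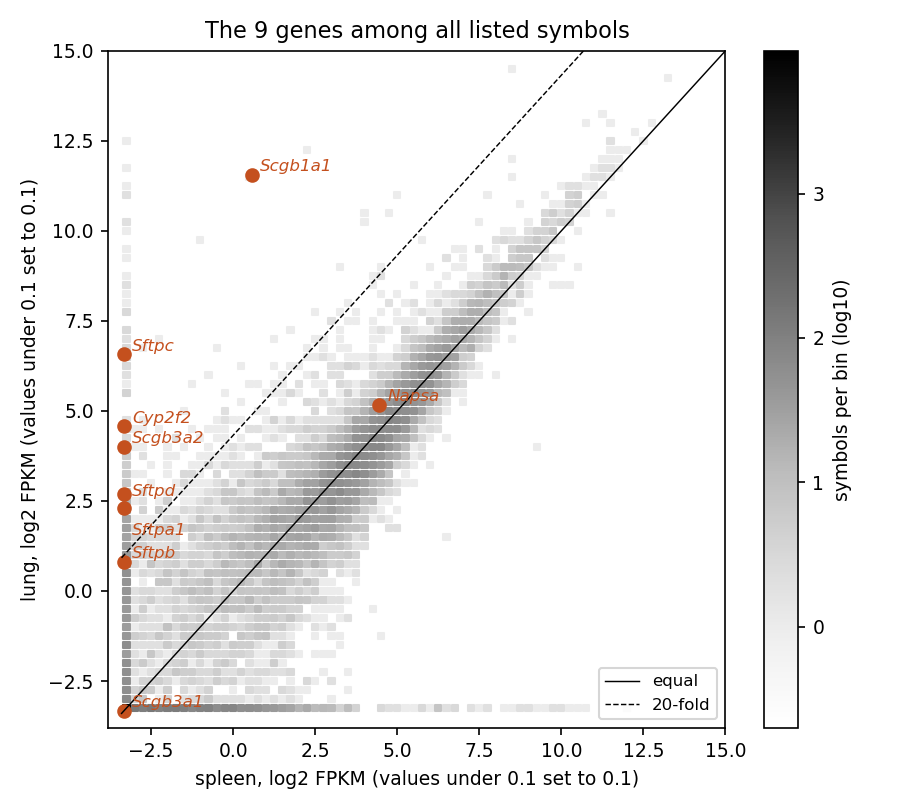
Log2 FPKM in lung against spleen for the 24346 symbols, after values under 0.1 were set to 0.1; grey squares are bins shaded by the number of symbols, orange points are the 9 genes, and the lines mark equal values and a 20-fold higher value in lung. The 6 genes over 20-fold lie above the dashed line, Sftpb lies just under it and Napsa lies near the line of equal values.

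Other genes of type 2 alveolar cells were less uniform. In a list of 17 genes for surfactant lipid handling and other functions of these cells, 2 were over 20-fold higher in lung, 10 were higher by any amount, 3 were lower and 4 were at 0 in both libraries. Slc34a2, the phosphate transporter of type 2 cells, was at 0.0243 FPKM in spleen, about 1 read, and at 2.14 in lung, about 100.1 reads. Lyz1, a lysozyme gene, had 29.9 FPKM in spleen and 1953 in lung. It is a close copy of the macrophage lysozyme gene Lyz2, at 376 and 24947 FPKM, and the split of reads between these copies is uncertain.
Among genes higher in lung by less than 20-fold, Fabp5 had 22.5 FPKM in spleen and 415 in lung, and Cd36 had 3.17 and 46.5. Ctsh had 32.2 and 216, Muc1 had 0.711 and 4.93, and Chil1 had 0.521 and 4.25. Abca3, which loads lipid into lamellar bodies, was lower in lung, at 4.73 FPKM against 7.47 in spleen. Lpcat1, an enzyme of surfactant phospholipid, had 32.7 FPKM in spleen and 30.5 in lung, and both genes were thus also read in splenic Tregs. Lamp3, a lamellar body protein, was at 0.0271 FPKM in lung. Sfta2, Cxcl15, Pgc and Dlk1 of this list were at 0 in both libraries. The median log2 ratio of the list was 0.64.

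Transcription factors of the lung epithelium were at or near 0. Of 10 such genes, 7 were at 0 in both libraries, among them the forkhead genes Foxa1 and Foxa2, and 0 were over 20-fold higher in lung. Nkx2-1, the factor that drives surfactant and secretoglobin genes in epithelium, had 0.141 FPKM in spleen and 0.248 in lung. These values rested on about 3.38 and 6.76 reads, and the ratio of 1.76 had an interval of 0.469 to 12.3. Cebpa, also expressed by myeloid cells, was at 0.794 and 1.08. The summed FPKM of the list was 1.06 in spleen and 1.33 in lung (0.268 and 0.248 without Cebpa). The 9 surfactant and secretoglobin genes summed to 3204 in lung, or 184 without Scgb1a1. A link between these factors and the 9 genes was not tested.

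Markers of other epithelial cells varied by cell type. Of 14 other club cell genes, 3 were over 20-fold higher in lung. Cbr2, a carbonyl reductase, had 0.593 FPKM in spleen and 58.9 in lung, Gstm2, a glutathione transferase, had 0.230 and 10.8, and Sec14l3, a lipid-binding protein, had 0 and 10.1. Gabrp, Pon1, Reg3g and Aox3 of that list were at 0 in both. Of 12 type 1 alveolar genes, 5 were over 20-fold higher in lung, namely Pdpn, Aqp5, Emp2, Cav1 and Igfbp2, each at 0 in spleen and at 3.73 to 16.2 FPKM in lung. The defining receptor gene Ager had 1.74 FPKM in lung against 2.27 in spleen, and Cldn18 was at 0 in both. Median log2 ratios were 0.32 for the other club cell genes and 3.47 for the type 1 genes.
Of 11 general epithelial genes, 7 were higher in lung by any amount, 4 of them over 20-fold, 3 were lower and 1 was at 0 in both. Those over 20-fold were the keratins Krt7, Krt8 and Krt19 and the claudin Cldn3, at 0 in spleen and at 3.70, 6.44, 11.7 and 2.42 FPKM in lung. The 3 lower genes were Epcam, at 8.75 FPKM in spleen and 1.79 in lung, Sfn, at 8.93 and 1.94, and Cldn4, at 0.361 and 0. The median log2 ratio of this list was 2.17. Of 10 ciliated cell genes 1 was over 20-fold higher, Tppp3 at 0.828 FPKM in spleen and 41.5 in lung, while Foxj1 was at 0.0717 in lung and Tmem212, Sntn and Dnah5 were at 0 in both. All 5 basal cell genes were at 0 in lung. Of 9 mucous cell genes 8 were at 0 there, with Muc5b at 0.426 FPKM. One of the 8, Ltf, was at 11.6 FPKM in spleen and was thus over 20-fold lower in lung.

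**Figure D3:**
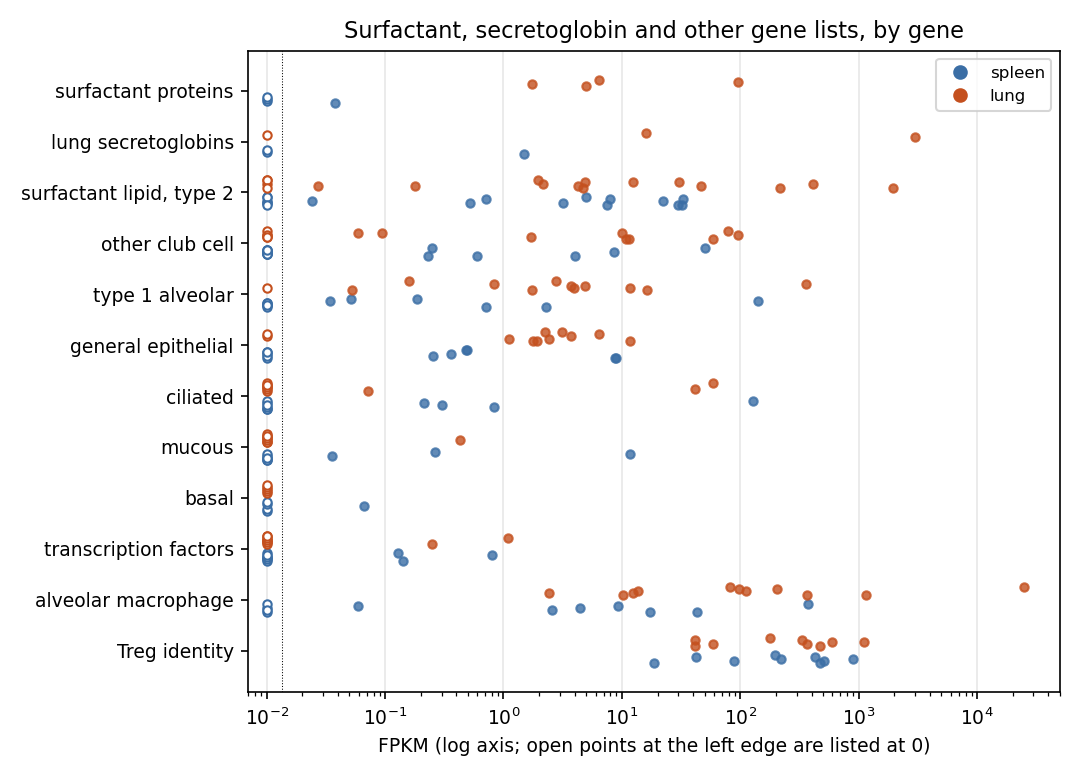
FPKM of each gene of the surfactant, secretoglobin and other lists on a log axis, in spleen (blue) and lung (orange), 1 library per tissue; open points at the left edge are genes listed at 0. The 4 surfactant protein genes lie at 1.75 to 94.8 FPKM in lung, while 8 of 10 transcription factors, 8 of 9 mucous genes and all 5 basal genes are at 0 there.

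Markers of non-epithelial cells differed in direction, with macrophage and fibroblast genes higher in lung, endothelial genes mixed and B cell genes lower. The part of these cells in the results was not tested. The sort was for GFP+CD4+ cells. Of 12 genes of alveolar macrophages, cells that take up surfactant, 11 were listed and all 11 were higher in lung, with a summed FPKM of 453 in spleen and 27011 in lung. Lyz2, ranked 1 among all symbols of the lung library, gave 92.4% of the lung sum, and without it the sums were 76.6 and 2064. Over 20-fold higher were 9 of them, Chil3, Ear1, Ear2, Car4, Fabp1, Krt79, Atp6v0d2, Plet1 and Lyz2. Of 8 fibroblast genes, 8 were higher in lung and 5 over 20-fold (Col1a1, Col1a2, Col3a1, Mgp and Dcn), with sums of 24.2 and 223 (24.2 and 107 without Mgp). Of 8 endothelial genes, 4 were higher in lung, 3 of them over 20-fold (Cldn5, Ramp2 and Egfl7), with sums of 55.4 and 65.6 (0.588 and 33.9 without Pecam1), and Tie1 and Emcn were at 0 in both libraries. All 6 B cell genes were lower in lung, with sums of 253 in spleen and 132 in lung. Median log2 ratios of lung to spleen were 6.05 for the macrophage list, 5.55 for fibroblasts, 0.97 for endothelial cells and -1.03 for B cells. The sum of the Treg identity list was 2878 in spleen and 3197 in lung.

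Genes beside the 9 on the chromosomes varied in direction. The nearest protein-coding gene on each side gave 17 distinct neighbours, of which 16 were listed. Of these, 0 were over 20-fold higher in lung, against 1.62% of all symbols, a share at which a count of 0 in 16 genes says little. By any amount 6 were higher, 6 were lower and 4 were at 0 in both. Flt4, the neighbour of Scgb3a1, was at 0 in spleen and 1.39 FPKM in lung. Sftpc spans bases 70520949 to 70524081 of chromosome 14 (GRCm38, minus strand), and Bmp1, 715 bases away, had 0.109 FPKM in spleen and 0.0957 in lung. Sftpa1 (plus strand, 41131782 to 41136452) and Sftpd (minus strand, 41172214 to 41185149) lie in the collectin cluster of the same chromosome, and Mbl1 between them was at 0 in both libraries. Scgb1a1 spans bases 9083636 to 9087958 of chromosome 19 (minus strand), and its neighbours Ahnak and Asrgl1 were at 39.9 and 16.9 FPKM in lung and at 10.9 and 12.9 in spleen. Sftpb lies on chromosome 6 from 72304610 to 72314371, Napsa and Cyp2f2 on chromosome 7 from 44572380 to 44586862 and from 27119909 to 27133660, and Scgb3a1 on chromosome 11 from 49663610 to 49665118, all on the plus strand. The spliced transcripts have 3 exons in Scgb1a1 and 11 in Sftpb.

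The genes with levels most like those of Scgb1a1 and Sftpc were found by Euclidean distance in log2 FPKM over the 2 libraries, with small RNA genes left out. For Scgb1a1 the nearest was Spp1 at a distance of 1.74, with a splenic FPKM of 4.62 and a lung FPKM of 4560. Retnla followed at a distance of 2.39 (0.495 and 874 FPKM) and Ccl6 at 3.68 (17.4 and 1545 FPKM). For Sftpc the nearest were Plet1 at a distance of 0.036 (0.0589 and 97.2 FPKM), Ctsk at 0.21 (0 and 110 FPKM) and Car4 at 0.22 (0 and 81.3 FPKM). A likeness over 2 libraries rests on 1 ratio and 1 level.

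**Figure D4:**
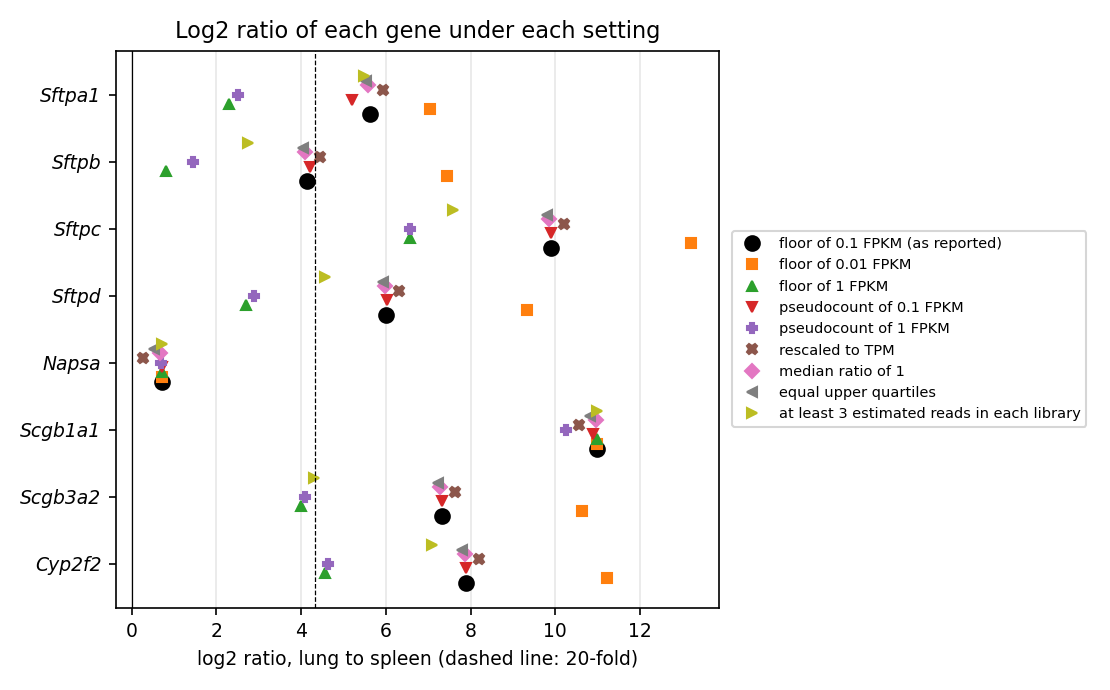
Log2 ratio of lung to spleen for 8 of the 9 genes under the reported floor of 0.1 FPKM (black) and 8 other settings; the dashed line is a 20-fold ratio, and Scgb3a1, at 0 in both libraries, is left out. Sftpc, Scgb1a1 and Cyp2f2 lie past the dashed line under every setting shown, Napsa lies between 0.28 and 0.71, and the other 4 cross it under some settings.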

How the data were processed

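GFP+CD4+ cells of BLM-administered FDG mice were sequenced as 1 pooled library each of spleen and lung, assigned to a tissue by their labels. The authors mapped single-end reads to mm10 with TopHat2 2.1.1, Bowtie2 2.2.8 and SAMtools 0.1.18 and calculated the deposited FPKM with Cuffdiff 2.2.1. Annotation, options and scaling between libraries are not given in the sources used here.

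Values under 0.1 FPKM were set to 0.1 before lung was divided by spleen. Reads were estimated as FPKM times effective transcript length (fragments of mean 200 and SD 80, shortest 71 among 70 to 76 tried) divided by the value of 1 read. This value, 0.0965 FPKM in spleen and 0.0850 in lung at 1 kb, was the most frequent such product in transcripts of at least 1500 nt. GENCODE M21 (GRCm38, as mm10) transcripts tied to RefSeq gave a length to 23676 symbols (97.2%), with the median taken for several transcripts. Among genes with a single length and 1 to 10 reads, 72.6% in spleen and 74.6% in lung lay within 0.1 of a whole read. Intervals are exact Poisson, or Clopper-Pearson for ratios.

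The 9 genes and all lists were chosen with earlier results of these data known. Named were the 9 genes, list genes over 20-fold higher in lung or at 0 there, further family symbols, chromosomal neighbours, the nearest profiles and Foxp3, Cd4 and Actb. Other genes of the lists, such as Abca3, Lpcat1, Fabp5, Cd36, Ctsh, Muc1, Chil1, Ager, Epcam and Sfn, were named after their values were seen. The steps were tested on simulated data. Python 3.11.15 was used (scipy 1.17.1, pandas 2.3.3, numpy 2.4.6, and matplotlib 3.10.9 for the plots).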

Additional observations from a re-analysis of the deposited data

How the results depend on the processing

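With 1 library per tissue, none could be left out. No paired analysis was possible because each tissue has 1 library. The count of 6 genes over 20-fold higher in lung was 3 with a floor of 1 FPKM and 3 with a pseudocount of 1 FPKM, and ranged from 5 to 7 in the other settings. Sftpb passed the threshold with a floor of 0.01 FPKM and after rescaling to TPM. Over all symbols the count of 395 was 867 with a floor of 0.01 FPKM, 102 with a floor of 1 FPKM, 78 with a pseudocount of 1 FPKM, 742 at a fold above 10 and 140 at a fold above 50. The median log2 ratio of the 9 genes was 9.34 with a floor of 0.01 FPKM, 2.69 with a floor of 1 FPKM, 2.90 with a pseudocount of 1 FPKM, and 6.67 over the 8 genes at 1 FPKM or more. These values depend on the floor because 6 genes are listed at 0 in spleen. The share of the lung FPKM sum was 0.426% without small RNA genes and 0.0227% without Scgb1a1. Rescaling to TPM shifted the log2 ratio of genes past the floor in each library by -0.43, and equal upper quartiles shifted it by -0.18. With no correction for fragment length, Scgb1a1 had 15744 estimated reads in lung. FPKM from few reads, as for Sftpb, are the least precise.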

Other observations

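With small RNA genes left out, 8321 symbols were listed at 0 in spleen, of which 1071 were above 0 and 292 at 1 FPKM or more in lung. By lung FPKM, Sftpc was 4th among these, after Tff1 (156 FPKM), Mgp (116), a matrix protein gene, and Ctsk (110), a cathepsin gene. Cyp2f2 ranked 13, Scgb3a2 ranked 18, Sftpd ranked 39 and Sftpb ranked 190.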
